A study of Mus musculus with 60 samples.

Results

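The cytosolic ribosomal protein genes are described here across female mouse embryonic stem cells (ESCs) and ESC-derived neurons in which Xist was switched on with doxycycline. Members were all genes whose symbol starts with Rps or Rpl and a digit, together with Rplp0, Rplp1, Rplp2 and Rpsa, without the Rps6k kinases and Rps19bp1. Of the 14383 genes listed in at least 1 of the 60 libraries, 75 were members, and 68 of these were listed in all 60 libraries. By symbol, 66 were core ribosomal proteins, 5 were paralogs (Rpl3l, Rpl7l1, Rpl10l, Rpl39l and Rps27l) and 4 were pseudogenes. A gene was listed in a library only where its allele-specific reads passed the coverage minimum of the authors, so a gene that is not listed was not measured and is not at 0. RefSeq holds 88 protein-coding genes that meet the rule, and 17 of them, among them the X-linked Rpl36a and Rpl39, were not analysed here. The X-linked members with data were therefore Rps4x, listed in all 60 libraries, and Rpl10, listed in 32.

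Each ribosome carries 1 copy of nearly every ribosomal protein, so the genes of the small-subunit (Rps) and large-subunit (Rpl) proteins are transcribed at high and similar rates in growing cells. Many of their messengers begin with a run of pyrimidines, the 5′ terminal oligopyrimidine motif, through which growth signals set their translation. Rps4x, on the X chromosome, encodes the small-subunit protein S4, and in humans a copy of it also lies on the Y. Rpl10l and Rpl39l are copies best known from the male germ line, where they stand in for the X-linked Rpl10 and Rpl39.

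All cells were F1 129/Sv × Cast/Ei and female and carried a doxycycline-inducible Xist transgene with the transactivator M2rtTA at ROSA26, so that reads over polymorphisms could be assigned to the 129 or the Cast allele. The ESCs were grown in 2i and LIF, and the neurons were derived from them on laminin in neuronal medium with retinoic acid for part of the time. Doxycycline was given at 2 ug/ml, for 5 days in the ESCs. In Tg-E clones (87 and 68) the inducible promoter stood in place of that of Xist at the endogenous locus of the Cast X in a line with a normal karyotype. In Tg-X clones (85, 86, 109 and 190) it had integrated at random on the Cast X, and in Tg-X;8 clones (339, 267 and 203b) on the product of a translocation between the 129 X and a duplicated part of Cast chromosome 8. Both sets carried that translocation, t(X;8), and clone 267 also carried a Tsix-Stop allele on the 129 X. In Tg-12 clones (228, 273 and 38) the transgene lay on 1 copy of chromosome 12 in a line trisomic for it. It is listed as on Cast in clones 228 and 273 and as on 129 in clone 55. A clone named 55-38 also appears in the study, and clone 38 was taken from this name alone to carry the transgene on 129. Clone 160 is labelled with an X-linked transgene but listed by the study with the Tg-12 clones and with a Tsix-Stop allele, and was kept apart. Each line is a single clone, clone 203b had 1 treated library, and clone 68 had 1 treated and no untreated library. Neurons came from the clones labelled 38 and 20, with and without doxycycline, and were collected on day 14 of differentiation. Clone 20 is labelled with the transgene on chromosome 12 and has no ESC library here, and its karyotype is not given in the sources used here. The study names clones 55 and 292 for its neurons, and the labels were followed here. The 8 libraries of clone 292 could not be assigned to a cell type from their labels and enter no comparison. The study calls the replicate ESC libraries of a clone and treatment biological replicates. They are repeats of single clones, so p-values measure the spread between these libraries.

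The 48 ESC libraries held 731374 to 5830149 allele-specific reads over 5871 to 10702 genes, and the 4 neuron libraries 7068712 to 10698003 over 11818 to 13036 genes. Xist was listed in 24 of 24 treated ESC libraries, at 206 to 2505 RPM, and in 15 of 24 untreated libraries, at 28.2 to 345. RPM stands throughout for htseqCount scaled in each library to the sum over the 4746 genes listed in all 60 libraries. The libraries fell into a pair of classes by a technical quantity, the total of all gene counts (htseqCount, which takes every read of a gene) per allele-specific read. This quantity was 2.93 to 3.14 in 40 libraries and 3.36 to 3.74 in 20. Untreated ESC libraries were mostly of the lower class (19 of 24) and treated ones were split 11 to 13, so treatment and class were unbalanced. No label names what sets the classes apart. Because several members differed between the classes, calls made for doxycycline are also given with the class as a term.

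Windows of 15 bases on either side of the annotated start are shown for members that the results turn on, on the transcript strand (RefSeq, GRCm38.p6). Capitals mark a run of at least 5 C or T that starts with C within 5 bases of the start. The first 4 listed are the members whose allelic ratios did not overlap between the library classes, the fifth was among the core members that fell most in neurons, and the last 3 are the X-linked members and a member on chromosome 12.
Rps15a, chr7:118116133-118116162, minus strand: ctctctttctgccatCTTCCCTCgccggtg
Rps24, chr14:24490663-24490692, plus strand: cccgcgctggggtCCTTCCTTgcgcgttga
Rps6, chr4:86857353-86857382, minus strand: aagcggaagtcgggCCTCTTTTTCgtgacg
Rps26, chr10:128626492-128626521, minus strand: gtcgggcaagccgccggatCCTCTTTCgag
Rpl14, chr9:120571502-120571531, plus strand: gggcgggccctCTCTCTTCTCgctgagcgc
Rps4x, chrX:102189377-102189406, minus strand: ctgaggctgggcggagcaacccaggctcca
Rpl10, chrX:74270801-74270830, plus strand: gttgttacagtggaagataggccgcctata
Rps7, chr12:28635939-28635968, minus strand: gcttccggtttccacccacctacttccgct
A run of this kind lay at an annotated start of 23 of the 54 members with a promoter in the table (42.6%), and at a start of 5328 of 27025 genes of all kinds (19.7%). Starts are taken from the annotation, so the absence of a run says only that these letters were not in this window.

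Rps4x lies on the X (102184941 to 102189391, minus strand), 1.27 Mb from the endogenous Xist locus. It was counted by 3392 or more allele-specific reads in every ESC library of the 12 clones with both treatments. In untreated ESCs its Cast/all ratio, the share of allele-specific reads that carry the Cast base, was 0.4997 at the lowest, 0.506 at the median and 0.530 at the highest over 24 libraries. Both alleles thus contributed nearly equally in all 12 clones.

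In Tg-E clone 87 the Rps4x ratio was 0.507 and 0.502 in the untreated libraries and 0.347 and 0.386 in the treated ones. The single treated library of clone 68 gave 0.382 (95% Wilson interval 0.375 to 0.389, counting error only). The treated values lay below every untreated ESC library. The log2 ratio of Cast to 129 reads fell by 0.80 (SE 0.07; edgeR quasi-likelihood test, Benjamini-Hochberg adjusted p = 5.48e-06), and also by 0.80 with the library class as a term (adjusted p = 6.67e-06). Rps4x was the 1 member called of 70 tested in clone 87, beside 1.05% of the 7256 genes tested (0.923% toward 129).

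In the Tg-X clones the Rps4x ratio was lower in every treated library than in any untreated library of the same clone. It was 0.521 and 0.511 without and 0.448 and 0.4502 with doxycycline in clone 85. In clone 86 the values were 0.505 and 0.501 without, 0.467 and 0.475 with. Clone 109 gave 0.508 and 0.503 without, and 0.402 and 0.399 with, the largest shift of the 4 clones. In clone 190 they were 0.503 and 0.503 without and 0.478 and 0.473 with. The study places the transgene of clone 109, by approximation, beside the endogenous Xist locus. It places those of clones 85, 86 and 190 at more distant sites on the X, and reports stronger silencing of genes close to a transgene. Whether distance bears on the differences between clones or categories was not tested. The Cast to 129 ratio fell by 0.33 on the log2 scale (SE 0.04, edgeR adjusted p = 2.48e-06), and by 0.34 both with the library class as a term (adjusted p = 3.96e-05) and in lower-class libraries alone (adjusted p = 4.77e-06).

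In the Tg-X;8 clones, where the transgene is linked to the 129 X, the Rps4x ratio moved the other way. It was 0.509 and 0.512 without and 0.526 with doxycycline in clone 203b, 0.530 and 0.515 without and 0.542 and 0.545 with in clone 267, and 0.501 and 0.511 without and 0.537 and 0.534 with in clone 339. The groups did not overlap within a clone. The log2 ratio rose by 0.14 (SE 0.03, edgeR adjusted p = 0.0164), and by 0.16 with the library class as a term (adjusted p = 0.0109). The call was lost in lower-class libraries alone (0.13, adjusted p = 0.353), without clone 267 (0.15, adjusted p = 0.159) or 339 (0.11, adjusted p = 0.141), and without either replicate (adjusted p = 0.234 and 0.767). A fit that blocks on replicate number lost it as well.

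In Tg-12 clones, whose transgene is not on the X, the Rps4x ratio was 0.4997 to 0.511 without (n = 6) and 0.498 to 0.516 with doxycycline (n = 6). These ranges overlapped, with a log2 difference of 0.00 (SE 0.03, edgeR adjusted p = 0.999). Clone 160 gave 0.516 and 0.515 without and 0.519 and 0.515 with doxycycline, a log2 difference of 0.01 (SE 0.06, adjusted p = 1). In these fits 0 of 70 and 0 of 71 members were called, beside 0.0774% and 0.0281% of all genes tested. At an unadjusted p under 0.05 there were 1 and 0 members, and DESeq2 called 0 in both. The Tg-12 fit joins clones with the transgene on opposite alleles, so shifts of opposite sign on chromosome 12 cancel in it. Without clone 38 it called 0 of 71 members (2 at an unadjusted p under 0.05), 8 genes toward Cast and 9 toward 129 of 5494.

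**Figure D1:**
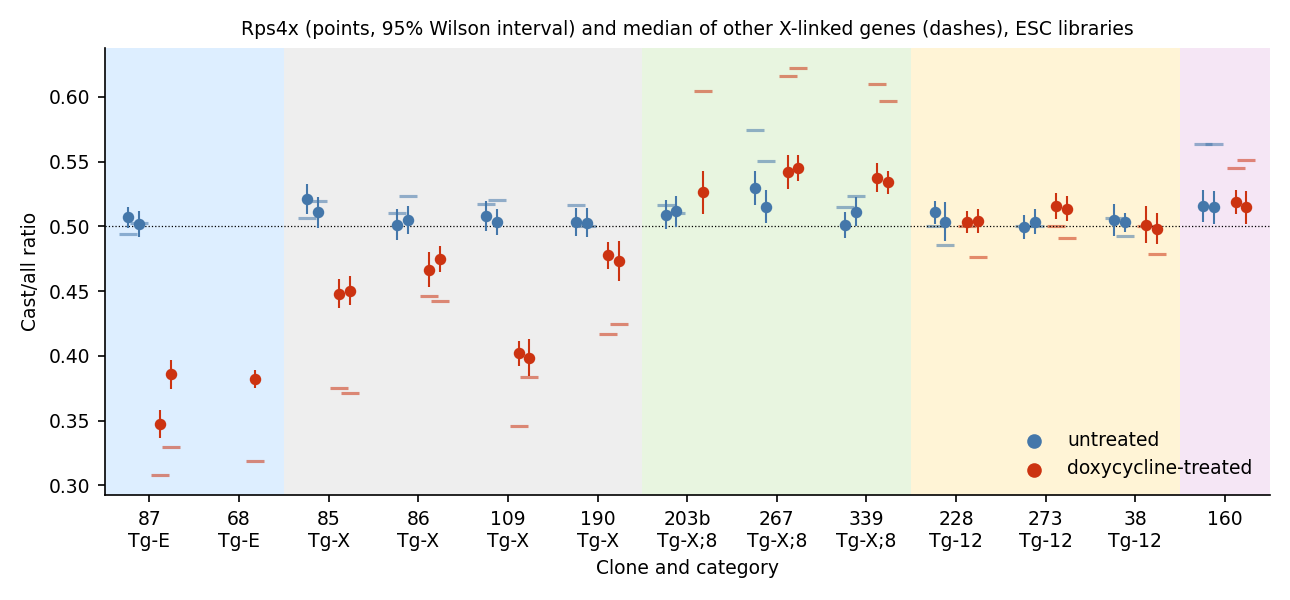
Cast/all ratio of Rps4x (y axis, share of allele-specific reads, no unit) in each ESC library, by clone and category (x axis), untreated in blue and treated in red, with 95% Wilson intervals as bars and the median of the other X-linked genes of the library as a dash. Treated libraries of clones 87 and 68 sit at 0.347 to 0.386 and those of the 4 Tg-X clones at 0.399 to 0.478, below the untreated libraries, while treated Tg-X;8 libraries sit at 0.526 to 0.545 and Tg-12 libraries stay near 0.5.

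The differences between categories were tested in a single fit over the 12 clones that carried the library class as a term. The Rps4x shift in Tg-E exceeded that in Tg-12 by -0.81 (SE 0.08, edgeR adjusted p = 1.98e-10), and that in Tg-X by -0.48 (SE 0.08, adjusted p = 6.86e-04). The Tg-X shift differed from Tg-12 by -0.32 (SE 0.05, adjusted p = 7.93e-05). The Tg-X;8 shift did not differ past the threshold from Tg-12 (0.14, SE 0.06, adjusted p = 0.560).

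Beside the other X-linked genes, Rps4x shifted less than the median gene. In Tg-E the median shift of 227 other X-linked genes was -0.96, and 137 of them shifted further toward 129 than Rps4x. In Tg-X the median of 155 genes was -0.63 and 119 lay below Rps4x. In Tg-X;8 the median of 185 genes was 0.30 and 130 lay above Rps4x, and in Tg-12 the median of 176 genes was -0.04. These positions are a description and were not tested. The study names Rps4x among the genes with CTCF at their start that earlier work had found to escape X inactivation. It saw an Xist-coated chromosome in only part of the treated cells. The bulk ratios therefore mix cells with and without coating and do not give the degree of silencing per cell. The autosomal members had medians of 0.02, 0.02, 0.015 and -0.01 in the same 4 categories.

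The summed level of both Rps4x alleles was less clearly separated. In clone 87 Rps4x stood at 5623 and 7679 RPM without and 4491 and 5653 with doxycycline. In Tg-X clones it was 5971 at the lowest, 6350 at the median and 7914 at the highest without, and 4102, 5375 and 6464 with. These ranges overlapped in both categories. The log2 differences were -0.42 (SE 0.27, edgeR adjusted p = 0.573) in Tg-E and -0.32 (SE 0.13, adjusted p = 0.0529) in Tg-X, and -0.18 (SE 0.16, adjusted p = 0.656) in Tg-12. Neither Tg-E nor Tg-X differed from Tg-12 in this response (adjusted p = 0.855 and 0.709). In bulk samples, fewer cells of a type and less RNA per cell cannot be told apart.

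Rpl10, which encodes the large-subunit protein L10 (uL16), could not be compared in the same way. It lies 29.2 Mb from the endogenous Xist locus. It had 8 to 21 allele-specific reads in the 13 untreated ESC libraries that list it. Its Cast/all ratio there ranged from 0.200 to 0.750 around a median of 0.444. In 9 treated libraries of the 12 clones it ranged from 0.214 to 0.667, with a median of 0.385. These ranges join categories whose Rps4x shifts went opposite ways, no treated library of clone 87 lists the gene, and a category had at most 5 libraries of either treatment. No shift of Rpl10 was tested. Its total level rests on all reads of the gene, but only in the libraries where these few reads passed the listing minimum. There Rpl10 had 6390 ± 995 RPM per kb of exon (SD, n = 9 clones), about that of Rps4x (6797 ± 860, n = 12 clones).

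Rpl13 and the members on chromosome 12 set clone 87 apart from the other clones before any treatment. Rpl13 lies on chromosome 8, and Rps7, Rps29 and Rpl10l lie on chromosome 12, all coding for ribosomal proteins or, for Rpl10l, a copy of one. In untreated clone 87 the mean Cast/all ratio was 0.480 for Rpl13. In the other 11 clones it ranged from 0.635 to 0.655. The treated library of clone 68, the other Tg-E clone, gave 0.474 for Rpl13, beside clone 87.

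On chromosome 12 the split was the same. Rps7 stood at 0.532 in clone 87 and at 0.637 to 0.710 in the other 11 clones. Rps29 stood at 0.469 in clone 87 and at 0.613 to 0.645 in the others. Rpl10l stood at 0.447 in clone 87 and at 0.571 to 0.648 in the others. No clone mean of the other 11 overlapped with clone 87 for any of these 4 members.

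**Figure D2:**
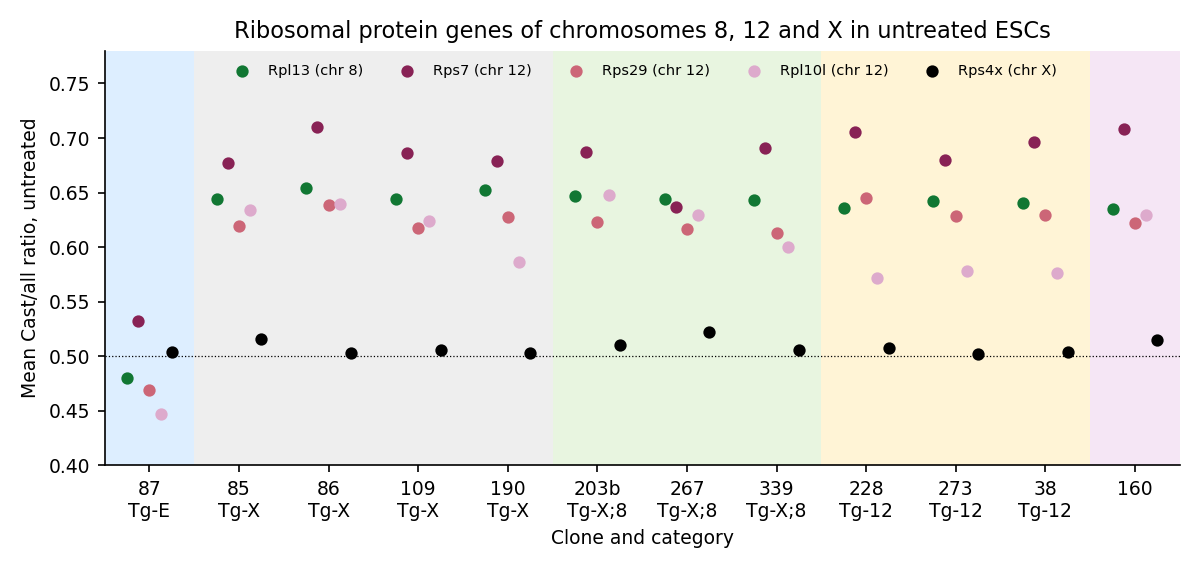
Mean Cast/all ratio in untreated ESCs (y axis, no unit) of Rpl13 (chromosome 8), the members on chromosome 12 and Rps4x (chromosome X), by clone and category (x axis). Rpl13, Rps7, Rps29 and Rpl10l lie at 0.447 to 0.532 in clone 87 and above 0.57 in the 11 other clones, while Rps4x lies between 0.502 and 0.522 in all 12.

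The other genes of chromosome 8 had median ratios of 0.495 and 0.496 in the untreated libraries of clone 87 and of 0.619 to 0.670 in those of the other clones. Over the whole of chromosome 12 the medians of clone 87 (0.674 and 0.687) lay close to those of the others (0.656 to 0.683). When the chromosome was divided at 75 Mb, a position chosen after the values were seen, the 5 libraries of clones 87 and 68 had medians of 0.494 to 0.511 before it and 0.740 to 0.751 from it on. The 43 libraries of the other 11 clones had medians of 0.622 to 0.716 and 0.647 to 0.707. Rps7 (28630847 to 28635953), Rpl10l (66283379 to 66284401) and Rps29 (69157722 to 69159186) lie on the side where clones 87 and 68 are near 0.5. The split did not follow the karyotypes as described: members of chromosome 12 were also above 0.57 in t(X;8) clones, and Rpl13 on chromosome 8 also above 0.63 in Tg-12 clones. None of these 4 members was called for a doxycycline shift in Tg-E, Tg-X or Tg-X;8 clones, in clone 160, or in the Tg-12 fit that joins both transgene alleles.

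On chromosome 12 the Tg-12 clones were therefore also compared by the allele that carries the transgene. The Rpl10l ratio was 0.549 and 0.594 without and 0.503 and 0.481 with doxycycline in clone 228, and 0.573 and 0.583 without and 0.528 and 0.540 with in clone 273. In clone 38 it was 0.575 and 0.577 without and 0.693 and 0.690 with. The ratio thus moved toward 129 in clones 228 and 273 and toward Cast in clone 38, and the groups did not overlap within a clone. In a fit chosen after these values were seen, with the shift signed by transgene allele, Rpl10l fell by 0.45 (SE 0.08, edgeR adjusted p = 0.00835) away from that allele. It was the 1 member called of 70, beside 0.0968% of 5167 genes, all in the same direction. With the library class as a term the shift was -0.45 (adjusted p = 0.00657, beside 0.116% of genes). The call was lost in lower-class libraries (-0.49, adjusted p = 0.163), without replicate 1 (adjusted p = 0.399) or 2 (adjusted p = 0.981), and without clone 228 (adjusted p = 0.123), 273 (adjusted p = 0.0662) or 38 (-0.33, adjusted p = 0.180). Of 219 other genes tested on chromosome 12, 3 were called away from and 0 toward the transgene allele, with a median of -0.13 and 23 genes below Rpl10l. The other chromosomes had 1 of 4878 genes called and a median near 0.

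Rpl10l also stood toward 129 with doxycycline where the transgene is not on chromosome 12, at -0.38 in Tg-E (edgeR adjusted p = 0.434), -0.18 in Tg-X (adjusted p = 0.149) and -0.14 in Tg-X;8 clones (adjusted p = 0.572), none of them called. The Rps29 ratio was 0.645 and 0.645 without and 0.640 and 0.619 with doxycycline in clone 228, 0.627 and 0.630 without and 0.643 and 0.611 with in clone 273, and 0.632 and 0.626 without and 0.659 and 0.661 with in clone 38. It overlapped between treatments in clone 273, and its signed shift was -0.10 (SE 0.06, edgeR adjusted p = 0.850). Rps7 had a signed shift of -0.01 (SE 0.13, adjusted p = 1.00) and Rpl13, on chromosome 8, of 0.01 (SE 0.04, adjusted p = 1.00).

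Across the other autosomes, 39 of 64 members listed in all untreated libraries had a mean Cast/all ratio between 0.45 and 0.55 (60.9%), beside 2891 of 4299 genes (67.2%). The medians were 0.496 and 0.497. The lowest mean ratios were those of the pseudogene Rps15a-ps6 (0.00233 ± 0.00449, SD, n = 12 clones), of Rpl41 (0.206 ± 0.033), which codes for the smallest ribosomal protein, and of Rps15a (0.245 ± 0.076). Among the highest were those of Rps15a-ps4 (0.982 ± 0.019) and Rps24 (0.684 ± 0.038). Both pseudogenes were counted by at most 87 allele-specific reads in an untreated library. Only unique alignments were kept, and how reads were divided between Rps15a and its pseudogenes is uncertain. Rpl41 rested on 22 to 153 reads.

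The ratios of Rps15a and Rps24 moved with the library class. In 30 lower-class ESC libraries the Rps15a ratio was 0.271 at the lowest, 0.310 at the median and 0.394 at the highest. In 18 higher-class libraries it was 0.00431, 0.00744 and 0.0163. The ranges lay far apart, with no library in between, and 579 or more allele-specific reads stood behind each value. Replicates of 1 clone and treatment fell on opposite sides, as in untreated clone 38 (0.336 and 0.00433). Rps24 went the other way, from 0.629, 0.660 and 0.693 in the lower to 0.764, 0.773 and 0.797 in the higher class.

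**Figure D3:**
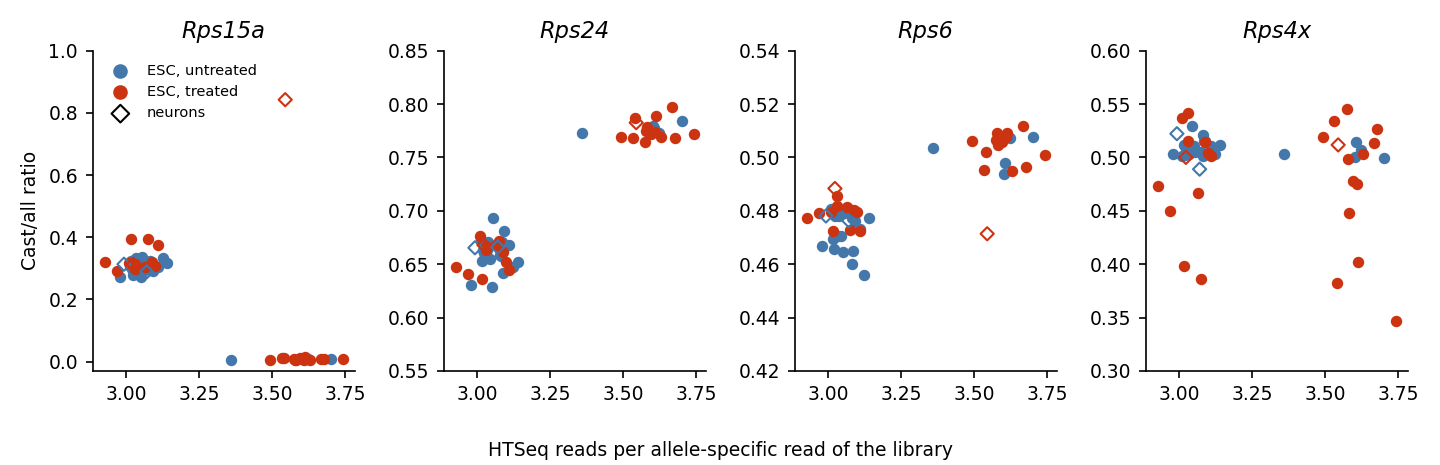
Cast/all ratio (y axis, no unit, with its own range in each panel) of Rps15a, Rps24, Rps6 and Rps4x against the total htseqCount per allele-specific read of each library (x axis, reads per read), with ESC libraries as filled points and neurons as open diamonds, untreated in blue and treated in red. In ESCs Rps15a drops from 0.271 to 0.394 in the lower class to at most 0.0163 in the higher, and Rps24 lies higher in the higher class, at 0.764 to 0.797 against 0.629 to 0.693.

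Ranges did not overlap between the classes for 4 members, Rps15a, Rps24, Rps6 and Rps26, that is for 5.88% of the 68 members listed in all ESC libraries. Over all 4759 such genes this was so for 9 (0.189%), and the other 5 were Cyp2e1, Gapdh, Gm13826, Gm20362 and Morf4l1. In the fit over the 12 clones, with clone and treatment kept, 17 of 68 members were called for a class difference, 6 toward Cast and 11 toward 129, beside 1.77% of all genes. Rps15a differed by -5.92 on the log2 scale (SE 0.08), Rps24 by 0.81 (SE 0.03), Rpl37 by -0.46 (SE 0.05), Rps26 by -0.30 (SE 0.03) and Rpl29 by -0.26 (SE 0.03). Toward Cast, Rps28 (0.19), Rpl32 (0.17), Rps6 (0.15) and Rpl7a (0.12) followed Rps24. In untreated libraries alone 2 of 70 members were called toward Cast and 7 toward 129, beside 0.619% of 5012 genes (0.2% toward Cast and 0.419% toward 129). The median absolute class difference of members was 0.05, beside 0.07 over all genes. Rps4x differed by -0.02 (SE 0.02, edgeR adjusted p = 0.846). All-read counts per allele-specific read were 2.41 and 2.58 for Rps15a in the lower and the higher class, and 4.56 and 6.93 for Rps24. What sets the classes apart was not tested.

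Several treatment calls moved with the classes. In Tg-X clones Rps24 was called toward Cast (0.44, SE 0.12, edgeR adjusted p = 0.0384), Rps6 toward Cast (0.14, adjusted p = 0.00665) and Rps9 toward 129 (-0.14, adjusted p = 0.0323). With Rps4x these were 4 of 69 members, 2 in each direction, beside 3.48% of 5770 genes (1.21% toward Cast and 2.27% toward 129). With the class as a term Rps24 stood at -0.02 (adjusted p = 0.963), Rps6 at 0.05 (adjusted p = 0.520) and Rps9 at -0.05 (adjusted p = 0.723). All 8 untreated Tg-X libraries were of the lower class, where the Rps24 ratio was 0.629 to 0.663. The 4 treated libraries of the lower class gave 0.636 to 0.668.

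A different member was called once the class was in the fit. Rpl4, coding for the large-subunit protein uL4, moved toward Cast in Tg-X by 0.17 (SE 0.04, edgeR adjusted p = 0.00546). Of all 5770 genes tested, 0.52% were called toward Cast in this fit. In lower-class libraries alone Rpl4 moved by 0.17 (adjusted p = 0.00821), beside 0.519% of 5777 genes called toward Cast. Rpl4 was also called for a class difference, with a lower ratio in the higher class (-0.12, SE 0.02, edgeR adjusted p = 1.12e-04). All untreated Tg-X libraries were of the lower class. In lower-class Tg-X libraries the Rpl4 ratio was 0.660 to 0.690 without and 0.676 to 0.710 with doxycycline, ranges that overlap over clones. Within clones the lower-class treated library lay above both untreated ones in each of the 4 clones (0.684 in clone 85, 0.676 in 86, 0.710 in 109 and 0.706 in 190).

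In Tg-X;8 clones 3 of 69 members were called, Rps4x toward Cast and Rps20 and Rps9 toward 129, beside 0.932% of 6115 genes (0.621% toward Cast and 0.311% toward 129). The Rps20 ratio was 0.387 to 0.415 in 6 untreated and 0.364 to 0.381 in 5 treated libraries, which do not overlap. The difference was -0.17 (SE 0.03, edgeR adjusted p = 0.00650), -0.17 with the class as a term (adjusted p = 0.0108) and -0.22 in lower-class libraries (adjusted p = 0.00624). It was lost without clone 267 (-0.14, adjusted p = 0.319) and without replicate 1 (adjusted p = 0.135) or 2 (adjusted p = 0.651). Rps9 (-0.17, SE 0.04, adjusted p = 0.0379) was not called with the class as a term (-0.11, adjusted p = 0.322). In Tg-X and Tg-12 the Rps20 difference with the class as a term was -0.07 (adjusted p = 0.560) and -0.12 (adjusted p = 0.527).

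Together the members took 10.1% of all htseqCount reads at the lowest, 13.2% at the median and 19.3% at the highest in 24 untreated ESC libraries. In 23 treated libraries the share was 9.28%, 12.1% and 16.6%. The ranges overlapped widely. Treated clones were lower in 7 and higher in 5 of 12 clones, by -0.98 percentage points on average (SD 2.02 over clones, n = 12), from -4.03 in clone 109 to 1.76 in clone 339 (permutation test of treatment within clones, two-sided, 100000 resamples, p = 0.0906). Clone 38 alone spanned 10.3% and 19.3% in its 2 untreated libraries, so replicates of 1 clone differed by more than the clones did. Without the first of these libraries the difference was -1.36 (permutation p = 0.0320), and without the second -0.61 (p = 0.198). Within lower-class libraries it was -0.51 (permutation p = 0.265) and within higher-class libraries -0.53 (p = 0.813, 5 clones). Over the genes listed in all libraries compared it was -0.82 (permutation p = 0.182).

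**Figure D4:**
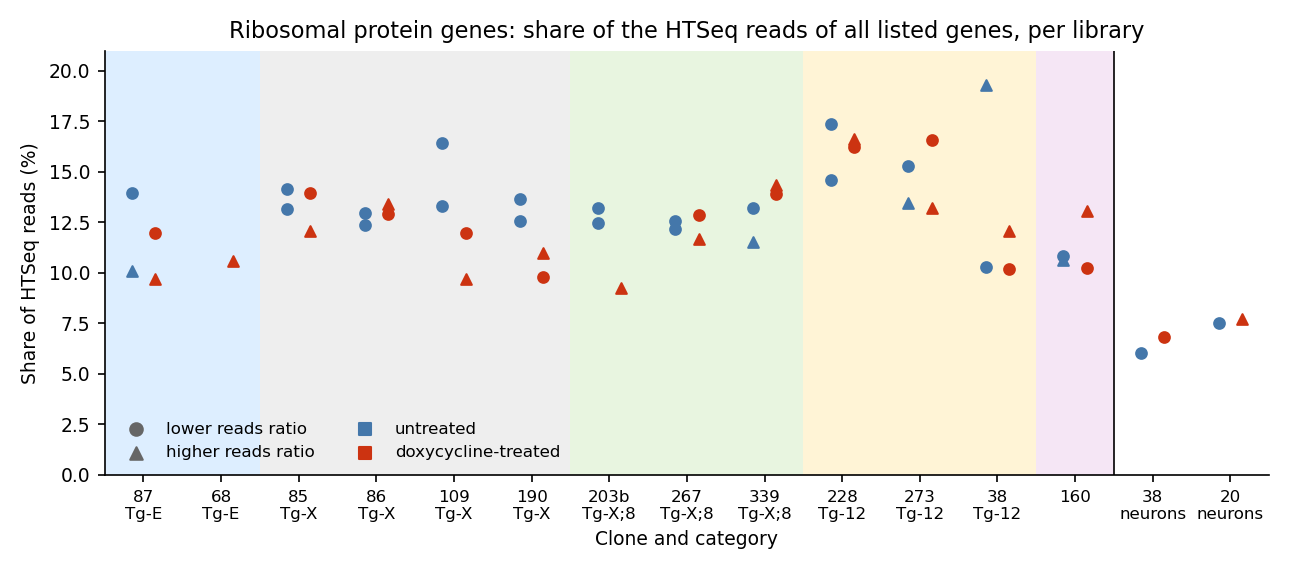
Share of htseqCount reads taken by the members (y axis, percent) in each library, by clone (x axis), untreated in blue and treated in red, with circles for the lower and triangles for the higher library class. ESC libraries range from 9.28% to 19.3% with untreated and treated points interleaved, and the 4 neuron libraries lie lowest, at 6.02% to 7.74%.

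The largest shares in untreated ESCs were those of Rps4x, Rpsa (the laminin receptor-related small-subunit protein), Rpl4, Rplp0 (the stalk base protein) and Rpl10. By length, Rps12 led with 6960 ± 983 RPM per kb of exon, followed by Rps4x, by the stalk protein gene Rplp1 (6543 ± 963) and by Rpl10 (SD, n = 12 clones, 9 for Rpl10). The differences among these 4 were within the spread over clones. Of the paralogs, Rpl10l (298 ± 113) and Rpl7l1 (124 ± 23.4, beside 3793 ± 518 for Rpl7) lay far lower than their namesakes. Rpl39l, whose namesake was not analysed, had 70.8 ± 26.3. Rps27l had 651 ± 98.1, above its namesake Rps27 at 5.30 ± 2.12 (n = 10 clones). The htseqCount of Rps27l fell below its allele-specific reads in 40 of 60 libraries and that of Rps27 in 20 of the 44 that list it, so both levels are understated. The same held in all 60 libraries for Rpl26, Rpl30, Rpl34 and Rpl34-ps1, whose levels are not interpreted.

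Doxycycline changed the level of few members. Over the 12 clones, 7 of 66 members tested fell and 0 rose, beside 19.7% of 4724 genes that fell and 18.9% that rose. The median member stood at -0.10 and the median gene at 0.01 (log2). The member median was -0.20 without the first and 0.002 without the second replicates, -0.05 in lower-class libraries, and -0.07 without clone 109 or 38. The members that fell were Rps27l (-0.36, SE 0.08, edgeR adjusted p = 8.03e-04), Rpl22 (-0.21), Rpl35a (-0.20), Rpl11 (-0.20), Rpl10l (-0.19), Rpl7 (-0.16) and Rpl7l1 (-0.09). Rpl11 is the large-subunit protein that, with 5S rRNA, binds Mdm2, and Rps27l is the paralog of Rps27. Rps27l and Rpl7l1 were lower in 10 of 12 clones and Rpl10l in 7. The htseqCount lay below the allele-specific reads in 40 libraries for Rps27l and in 7 for Rpl10l, so their changes rest on incomplete counts. With the library class as a term the count was 3, beside 17% of all genes, and the members were the paralogs Rps27l (-0.34, edgeR adjusted p = 0.00341), Rpl10l (-0.22, adjusted p = 0.0327) and Rpl7l1 (-0.10, adjusted p = 0.0442). The core members Rpl22, Rpl35a, Rpl11 and Rpl7 were then not called. In lower-class libraries 2 of 67 members fell, beside 12.1% of genes. In higher-class libraries 0 of 68 members were called, but so were 0 of 6671 genes. The count of members that fell was 11 by DESeq2, beside 993 of 4724 genes, and 0 without the second replicates. It was 1 without clone 109, 203b or 38 (with 1 member called as higher without clone 38). It was 2 to 5 without clone 267, 85, 190, 87, 86 or 273, 4 without the first replicates, and 18 or 19 without clone 228, 160 or 339. For these left-out fits the share of all genes called is not given here, so the counts are not read as a result about the members.

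By category, members were called only in Tg-X clones, where 7 of 66 fell, beside 21.3% of all genes (Rps27l, Rpl35a, Rpl11, Rpl5, Rpl31, Rpl7 and Rpl15). Rps27l was 387 RPM at the lowest, 439 at the median and 537 at the highest in 8 untreated libraries and 225, 293 and 367 in 8 treated ones. The groups did not overlap, and the difference was -0.63 (SE 0.13, edgeR adjusted p = 2.89e-04). It rests on the same incomplete count, whose median per allele-specific read was 0.92 in lower-class and 1.08 in higher-class ESC libraries. The 6 others differed by -0.29 to -0.34. With the library class as a term 3 members in all were called, a count whose share over all genes is not given here. No member was called in Tg-E, Tg-X;8 or Tg-12 clones or in clone 160 (2, 0, 2 and 0 at an unadjusted p under 0.05, and 1, 0, 0 and 0 by DESeq2). All genes called were 0.91% in Tg-E (0.212% rose, 0.699% fell), 2.56% in Tg-X;8 (1.25% rose, 1.31% fell), 1.57% in Tg-12 (0.931% rose, 0.635% fell) and 0 in clone 160. In the test of the difference between Tg-X and Tg-12 clones 0 members were called as well (1 at an unadjusted p under 0.05, 0 by DESeq2), beside 5.86% of genes with a higher and 5.5% with a lower response in Tg-X. Between Tg-X and Tg-X;8 0 members were called (0 at an unadjusted p under 0.05, 0 by DESeq2), beside 0.593% of genes. One member differed between Tg-E and Tg-12, the germ-line paralog Rpl39l. It stood at 36.9 and 50.05 RPM without and at 17.1 and 17.9 with doxycycline in clone 87, and its response differed from that of Tg-12 by -1.72 (SE 0.40, edgeR adjusted p = 0.0224), where 1.42% of all genes were called (1.02% as lower). This call was lost without replicate 1 (adjusted p = 0.999) or 2 (adjusted p = 0.128), and in a fit that blocks on replicate number.

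Other genes of translation were looked at by list. Of 64 mitochondrial ribosomal protein genes tested, 25 fell and 1 rose with doxycycline over the 12 clones, with a median of -0.12, beside the 19.7% and 18.9% of all genes that fell and rose. With the library class as a term 19 fell and 1 rose, beside 17% and 15.7%. Mrpl42 (-0.39) and Mrpl33 (-0.39) were the lowest. Of 14 genes tested on a list of translation factors and related genes, 3 rose (Eef2 0.16, Eif4b 0.12, Pabpc1 0.10) and 2 fell (Npm1 -0.26, Eif3e -0.20). Of 21 ribosome assembly genes, 4 rose, led by Nop2 (0.25) and Ubtf (0.21), and Wdr12 fell (-0.24). Of 8 p53 targets tested, Sesn2 rose (0.41) and Eda2r fell (-0.29). Among 10 ESC markers, 5 rose and 2 fell, with Esrrb at 0.41 and Dppa5a at -0.33. With the class as a term the counts that rose and fell were 1 and 2 on the translation factor list (Eef2 against Npm1 and Eif3e). They were 3 and 1 for ribosome assembly genes, 1 and 0 for p53 targets (Sesn2) and 5 and 2 for ESC markers. Vim, the 1 neural progenitor marker tested, rose by 0.25 (edgeR adjusted p = 0.0123), and Slc1a3, the 1 astrocyte marker tested, by 0.32 (adjusted p = 7.74e-04). Slc1a3 alone of these was called with the class as a term. No marker of the neuron, oligodendrocyte, endoderm or fibroblast lists was tested. Their part in the member values was not tested.

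The t(X;8) karyotype was compared over untreated clones, 7 with it (Tg-X and Tg-X;8) against clones 87, 228, 273 and 38. The member share was 11.5% to 16.4% in 14 libraries with and 10.1% to 19.3% in 8 without it. None of 68 members was called (16 at an unadjusted p under 0.05, and 1 higher and 1 lower by DESeq2), beside 0.701% of 4993 genes. The median member stood at -0.23. Rpl10l was the member furthest above the rest (0.95, SE 0.22, edgeR adjusted p = 0.0867), and Rps4x stood at -0.35 (SE 0.13, adjusted p = 0.281). Leaving out clone 87 gave 4 members called as lower, 53 of 68 at an unadjusted p under 0.05 and a median of -0.35, beside 98 of 5008 genes called as lower. Without clone 109 there were 2, beside 46 of 5065 genes, and without clone 339 there was 1 called as higher, beside 6 of 4997. The median was -0.13 without clone 228, -0.17 without clone 38, -0.13 with clone 160 added and -0.16 in lower-class libraries.

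The members took a smaller share of the reads in neurons than in ESCs. The member share was 7.52% and 7.74% in the neurons labelled clone 20 and 6.02% and 6.83% in those of clone 38, without and with doxycycline. In the 4 ESC libraries of clone 38 it was 10.3% and 19.3% without and 10.2% and 12.1% with doxycycline. All neuron values lay below all ESC values. The mean was 7.03 ± 0.775% against 12.97 ± 4.30% (SD, n = 4 each), a difference of -5.94 percentage points (exact permutation test, two-sided, p = 0.0286, the smallest that 4 against 4 can give). Over genes listed in every library compared the difference was -5.53. Leaving out the second untreated ESC library, the one at 19.3%, gave -3.83 (exact p = 0.0286). Leaving out any 1 neuron library gave an exact p of 0.0857, with differences of -5.60 to -6.18. Within lower-class libraries it was -3.47 (3 against 2, exact p = 0.1, the smallest possible).

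Gene by gene, 45 of 68 members fell in neurons and 0 rose, beside 18.1% of 6729 genes that fell and 16.3% that rose. The median member stood at -0.87 (log2). Within lower-class libraries 26 of 68 fell, with a median of -0.50, beside 10.2% of genes that fell there. The count of members that fell ranged from 8 to 57 when single libraries were left out. Without the second untreated ESC library it was 53 and the median member stood at -0.52. It was 8 without the untreated neurons of either clone or the second treated ESC library, and 13 without the treated neurons of clone 38. The share of all genes called in these left-out fits is not given here, so the counts alone do not set members apart from other genes.

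The germ-line paralogs fell most. Rpl10l was at 174 and 261 RPM in untreated and 139 and 171 in treated ESCs of clone 38, and at 17.4, 14.1, 13.5 and 9.54 in the 4 neuron libraries. It differed by -3.91 (SE 0.26, edgeR adjusted p = 2.80e-05). Rpl39l was at 21.9 to 34.8 in ESCs and 3.66 to 6.16 in neurons (-2.56, SE 0.28, adjusted p = 2.68e-04). The groups did not overlap for either gene.

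Among core members, Rps20 (-1.33, SE 0.31, edgeR adjusted p = 0.0119), Rpl14 (-1.29, SE 0.30, adjusted p = 0.0103) and Rplp1 (-1.26, SE 0.33, adjusted p = 0.0189) fell most. Rpl14 was at 1171 to 2373 RPM in the 4 ESC and at 617 to 774 in the 4 neuron libraries. Rps4x fell by 1.11 (SE 0.30, adjusted p = 0.0217), from 4943, 10233, 5212 and 6002 to 2813 to 3814, and its Cast/all ratio in neurons was 0.489 to 0.522. The high values all came from the second untreated ESC library, in which Rps4x, Rpsa, Rpl13 and Rplp1 were each the highest of the 8. At the other end Rpl7l1 (-0.10, SE 0.17, adjusted p = 0.654), Rps27l (-0.28, adjusted p = 0.451), Rpl7a (-0.32, adjusted p = 0.207) and Rpl15 (-0.35, adjusted p = 0.143) did not pass the test.

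**Figure D5:**
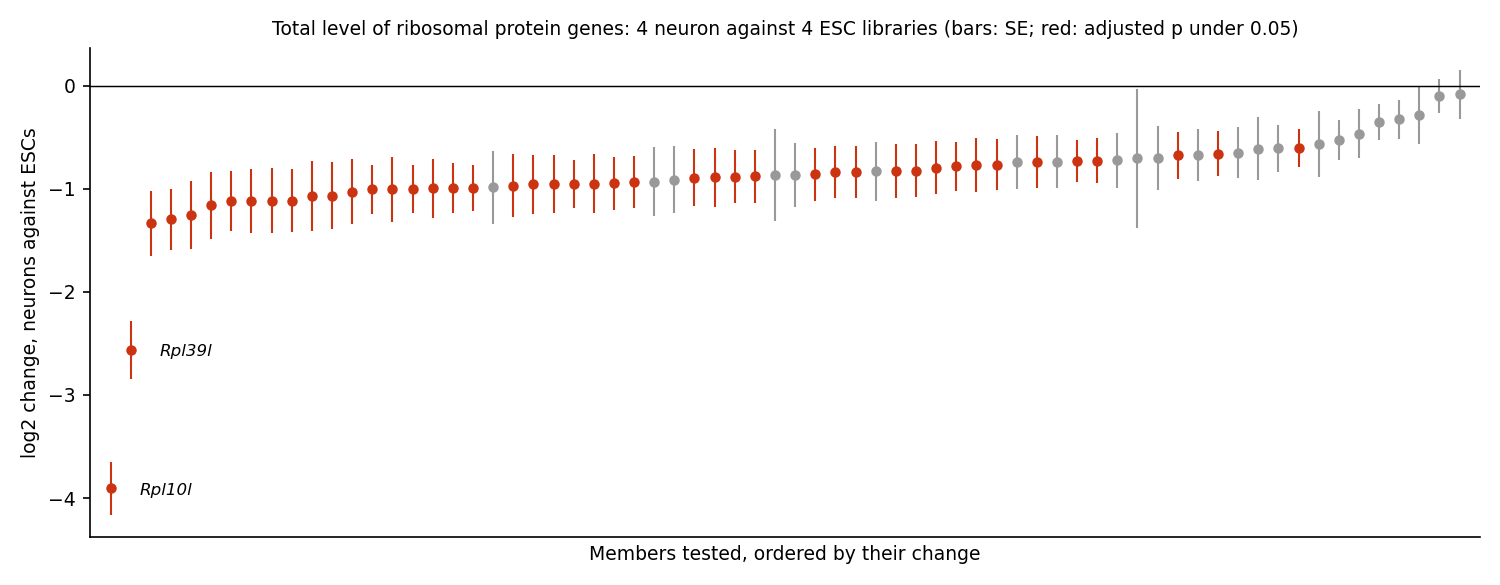
Difference in level between neurons and clone 38 ESCs (log2, neurons minus ESCs) on the y axis for each member tested, ordered along the x axis by this difference, with its SE as a bar and members with an adjusted p under 0.05 in red. Rpl10l (-3.91) and Rpl39l (-2.56) stand apart, 45 of 68 members are called as lower, and none is called as higher.

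Several markers moved with this comparison. All 10 ESC markers fell, and their summed level was 2654 to 4893 RPM in neurons and 9635 to 12642 in clone 38 ESCs, so ESC transcripts were still present. A marker that a library does not list adds nothing to its sum, and the clone 38 ESC libraries were shallower than the neuron libraries. In clone 38 ESCs 2 of the 10 neuron markers and 1 of the 5 oligodendrocyte markers were ever listed. Differences in the sums that follow may therefore partly reflect the listing minimum. The 10 neuron markers summed to 161 to 1215 in neurons and 53.2 to 79.5 in ESCs, with Stmn2 never listed. Of the 6 neural progenitor markers, summing to 646 to 2067 in neurons and 289 to 380 in ESCs, Sox1 and Vim rose. Endoderm markers summed to 52.3 to 143 and fibroblast markers to 59.5 to 492 in neurons, and none of either was listed in clone 38 ESCs. Astrocyte and oligodendrocyte markers summed to 42.2 to 407 and 34.7 to 68.0 in neurons, and to 78.3 to 127 and 0 to 10.4 in ESCs. The neuron libraries thus held markers of several cell types, and the part of each cell type in the member values was not tested.

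Other lists were counted in the same comparison. In neurons 5 of 14 genes tested on the translation factor list fell (Fau -1.19, Eef1g -1.08, Eef1b2 -1.02, Gnb2l1 -0.71 and Pabpc1 -0.67) and 0 rose. Fau codes for a small-subunit ribosomal protein that the symbol rule does not reach, so this list is not separate from ribosomal protein genes. Of 22 ribosome assembly genes 4 fell, with Bysl lowest at -0.85, and of 68 mitochondrial ribosomal protein genes 16 fell, beside 18.1% of all genes that fell and 16.3% that rose, with list medians of -0.13 and -0.46. Of 9 p53 targets 7 rose, led by Ccng1 (1.42) and Eda2r (1.14). Differences between lists were not tested.

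The treated neuron library of clone 20, of the higher class, stood apart in allelic ratios. Its Rps15a ratio was 0.843 over 1054 allele-specific reads, against 0.289, 0.313 and 0.313 in the other neuron libraries, and thus lay on the opposite side from the higher-class ESCs. Its Rps24 ratio was 0.783 against 0.665 to 0.668, as in higher-class ESCs.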

How the data were processed

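RNA of 60 libraries had been sequenced as single 43-base reads and aligned by the authors with TopHat2 2.0.6 to 129/Sv and Cast/Ei genomes built on mm10, keeping the best unique alignment. The deposited counts are allele-specific reads summed over the exonic SNPs of a gene (samtools) and htseqCount (HTSeq 0.6.1, all reads of a gene). The deposited fraction, Cast/all, was recomputed from the allelic counts. Genes below the authors' coverage minimum are not in a library's file, and the lowest listed gene had 8 allele-specific reads.

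Counts were fitted with edgeR 4.0.16 (quasi-likelihood test, TMM, filterByExpr, Benjamini-Hochberg over all genes tested, adjusted p under 0.05) over genes listed in every library of the fit, with clone or treatment as covariate. Allelic shifts were treatment by allele terms on Cast and 129 counts with a term for each library. These allelic fits and the allelic comparison of classes used no TMM scaling. Log2 changes and SEs come from these fits. Shares were tested by permutation in numpy 2.4.6. DESeq2 1.42.0 was an alternative, with other scalings, filters, omitted libraries and clones and a replicate block. The library class as a term or split, clones left out of the doxycycline fit, clone 160 alone, the Tg-12 shift signed by transgene allele, the share without Rpl10 and the comparison of classes were chosen after seeing the data. Symbols were matched to RefSeq GRCm38.p6 for 75 of 75 members, and the intervals of 74 overlapped the RefSeq gene. RefSeq gave exon lengths and start sites for all but Rpl34-ps1, whose interval did not overlap.

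On simulated counts, 100% of genes changed 1.5-fold in total level over 4724 genes were called, and 20% and 100% of those changed 1.25- and 2-fold in the Tg-X allelic design over 5770 genes. The simulation gave all genes the same fixed spread, changed only genes with larger counts and had no library class. These percentages therefore do not give the power of the real comparisons.

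Depth ranged from 2284822 to 20637905 htseqCount reads in ESCs and from 25057343 to 32336068 in neurons. Intervals are 95% Wilson intervals and cover counting error only. Replicate libraries of a group differed beyond counting noise (chi-square per degree of freedom 1.65 to 92.4 over 23 pairs), so none was merged.

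Members and gene lists were chosen with earlier results of these data known. Members were named if X-linked or on chromosomes 8 or 12, if among the 5 with the largest change called in each direction of a comparison, if a paralog with its namesake, if among the 3 highest or lowest Cast/all ratios, or among the 5 largest shares. Some members that meet the rule are not reported here. Members named for the library classes were chosen after their values were seen.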

Additional observations from a re-analysis of the deposited data

Results flagged for a closer look

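Among 35 groups of 4 to 10 values examined for a value far from the others, 12 held one. Some of the genes were picked after their values were seen, and the groups share libraries, so this count cannot be set against a chance rate. In the group of untreated clones 87, 228, 273 and 38, clone 87 stood apart for Rpl13 on chromosome 8 and for the members on chromosome 12, with Cast/all ratios of 0.532 for Rps7, 0.469 for Rps29, 0.447 for Rpl10l and 0.480 for Rpl13. These members lie where clones 87 and 68 have near-equal alleles.

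Clone 228 stood apart in the same group for Rps15a (0.320), Rps24 (0.657) and Rps6 (0.465), and clone 339 stood apart among the t(X;8) clones for Rps15a (0.166) and Rps24 (0.716). Both untreated libraries of clone 228 were of the lower class, while the other 3 clones of its group had 1 library of each. Clone 339 was the t(X;8) clone with an untreated library of the higher class. Among the neurons, the treated library of clone 20 stood apart for Rps15a (0.843), Rps24 (0.783) and Rpl4 (0.689). It was the neuron library of the higher class.

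The Rps4x allelic shift differed between categories by a test of the difference, Tg-E minus Tg-12 by -0.81, Tg-X minus Tg-12 by -0.32 and Tg-E minus Tg-X by -0.48. The total level of Rpl39l responded differently in Tg-E and Tg-12, by -1.72, on the basis of 4 libraries of clone 87, a call lost when either replicate was left out. Treated clone 68, which enters no comparison because it has no untreated library, had an Rps4x ratio of 0.382, below the 0.4997 to 0.530 of the untreated libraries.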

How the results depend on the processing

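Among 353 values of comparisons under alternatives, 273 kept their side of the threshold or stayed within 1.5 times, and among 609 values of single members 427 did, 173 lost and 7 gained a call and 2 turned in direction. The 2 were Rps24 in Tg-X, at -0.018 with the library class as a term and -0.017 in lower-class libraries. Single members in Tg-X called toward Cast were 0 by DESeq2 and 1 with the class as a term, in lower-class libraries or with clone 160 added, and toward 129 1 by DESeq2, with the class or in lower-class libraries, with ranges of 0 to 2 and 1 to 3 when clones 85, 86 or 190 or a replicate were left out. In Tg-X;8, members toward Cast were 0 in lower-class libraries and toward 129 1 by DESeq2, with the class or in lower-class libraries, with ranges of 0 to 2 and 0 to 4 over left-out replicates 1 and 2 and clones 203b, 267 and 339. With the Tg-12 shift signed by transgene allele, members away from that allele were 0 in lower-class libraries and 0 with any replicate or clone left out. Between the classes, untreated libraries gave 2 and 7.

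With doxycycline, members that fell over all clones were 11 by DESeq2, 3 with the class as a term, 2 in lower-class and 0 in higher-class libraries, and 0 to 19 over left-out replicates and clones, with 0 to 1 that rose. In Tg-X they were 11 by DESeq2, 3 with the class, and 1 to 2 without a replicate. In Tg-E DESeq2 called 1. The share difference ranged from -1.36 to -0.61 with 1 library left out, and its permutation p was below 0.05 without the first untreated library of clone 38 (p = 0.0320), the second of clone 228 (p = 0.0494), or the first treated library of clone 273 (p = 0.0459) or 160 (p = 0.0483). In neurons, members that fell were 23 in untreated and 26 in lower-class libraries and 8 to 57 with 1 library left out. The neuron share difference was -6.86 to -3.83 with 1 library left out and -3.47 in lower-class libraries. For t(X;8), DESeq2 called 1 higher and 1 lower, and leaving out a clone gave 0 to 1 and 0 to 4. For most of these settings the share of all genes called is not given, and the cause of these changes was not tested.

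Whether replicate numbers pair the libraries is not settled: same-numbered differences correlated above 0.1 in 7 of 11 clones (-0.59 to 0.71). With a replicate block, Rpl10l kept its signed Tg-12 call (-0.46, edgeR adjusted p = 0.0244), 4 members fell over all clones and 14 in Tg-X, Tg-X;8 gave 0 toward Cast and 1 toward 129, and the share difference was -0.95 (permutation p = 0.0849). The block also took the call from Rps4x in Tg-X;8 (0.14, edgeR adjusted p = 0.0660) and from Rpl39l between Tg-E and Tg-12 (adjusted p = 0.0514). Depth limits Rpl10 and Rpl41, which rest on few allele-specific reads.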

Other observations

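The 8 libraries of clone 292, whose cell type the labels do not give, had member shares of 8.04% to 10.8% with a median of 10.1%. Their Rps4x Cast/all ratio was 0.498 to 0.507 in the 4 libraries whose replicate label carries an N (0.504 and 0.505 without, 0.498 and 0.507 with doxycycline) and 0.527 to 0.546 in the 4 others (0.546 and 0.545 without, 0.528 and 0.527 with). Rps20 stood at 0.366 to 0.414 in the former and 0.443 to 0.463 in the latter, which is also where the ESC libraries (0.336 to 0.415) and the neurons (0.435 to 0.471) lay. The 1 library of the higher class among them, treated and labelled 2N, had an Rps15a ratio of 0.00472 and an Rps24 ratio of 0.770, against 0.249 to 0.316 and 0.649 to 0.677 in the other 7.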
